A study of Saccharomyces cerevisiae with 15 samples.

Results

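The pentose phosphate pathway gene ZWF1 and the paralogs SOL1, SOL2, SOL3, SOL4, GND1, GND2, TKL1, TKL2 and NQM1 of budding yeast were followed while cells passed from glutamine to proline as nitrogen source. These 10 genes were taken by their symbols, and each was read by 1 probe set that names no other gene, out of 5449 genes so measured. ZWF1, which opens the pathway, has no paralog in yeast. NQM1 was set against TAL1, its transaldolase paralog. Every array came from wild-type Saccharomyces cerevisiae YSBN6, a single strain, grown in bioreactors on 20 g/L glucose with 500 mg/L glutamine and 250 mg/L proline. Glutamine ran out during growth, and time was counted from the moment it could no longer be detected. There were 15 arrays: 3 cultures, called cultures 1, 2 and 3, each gave arrays labelled −10, 7 and 24 min, and culture 1 alone gave arrays at −5, 3, 10, 14, 56 and 120 min. The times are those of the labels and are nominal, and by the study's supplementary sampling list the baseline samples were taken somewhat earlier than −10 min. The −10 min samples, from growth on glutamine, served as the baseline.

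The pathway has 2 branches. In the oxidative branch, glucose 6-phosphate dehydrogenase (ZWF1), 6-phosphogluconolactonase (SOL3 and SOL4) and 6-phosphogluconate dehydrogenase (GND1 and GND2) turn glucose 6-phosphate into ribulose 5-phosphate and release NADPH, the reductant for biosynthesis and for peroxide defence. In the non-oxidative branch, the isomerase RKI1, the epimerase RPE1, transketolase (TKL1 and TKL2) and transaldolase (TAL1 and NQM1) exchange carbon between pentose phosphates and the sugar phosphates of glycolysis, giving ribose 5-phosphate for nucleotides and erythrose 4-phosphate for aromatic amino acids. SOL1 and SOL2 belong to the same protein family as SOL3 and SOL4 but were found through tRNA handling. GND1, TKL1 and TAL1 are known as the major isozymes of growing cells.

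The values are probe set intensities in arbitrary units, already normalized across the arrays, and the log2 change is the unit of comparison below. An intensity depends on the probes as well as on the transcript, so levels of different genes were not set against each other, and only their changes were. The arrays report shares of the RNA labelled, so less of a transcript per cell and a larger total of other RNA cannot be told apart. Summed intensity ranged from 22691203 to 24045522 over the arrays. The dimmest reading of any of the 10 genes was 147 for TKL2, above the background of 68.1 set by probe sets of another organism, so no gene fell to background on any array.

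In 4 of 5 pairs the paralogs parted, and no share over other gene pairs was obtained to set beside this count. By 24 min SOL4, NQM1, TKL2 and GND2 had risen by 2.89, 2.45, 1.89 and 1.61 on the log2 scale, while SOL3, TKL1 and GND1 had fallen by 0.56, 0.56 and 0.52. ZWF1, SOL1 and SOL2 rose by smaller amounts, 0.22, 0.29 and 0.45. In the comparison of 24 min with −10 min all 10 genes passed an adjusted p of 0.05 in limma, 7 of them higher and 3 lower. Over all 5498 probe sets tested 82.2% passed (46.9% higher and 35.2% lower), so a call alone sets these genes little apart. All 10 genes also had 24 min arrays that did not overlap those at −10 min, where 84.4% of all probe sets had. Their median absolute log2 change was 0.56, beside 0.36 over all probe sets.

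**Figure D1:**
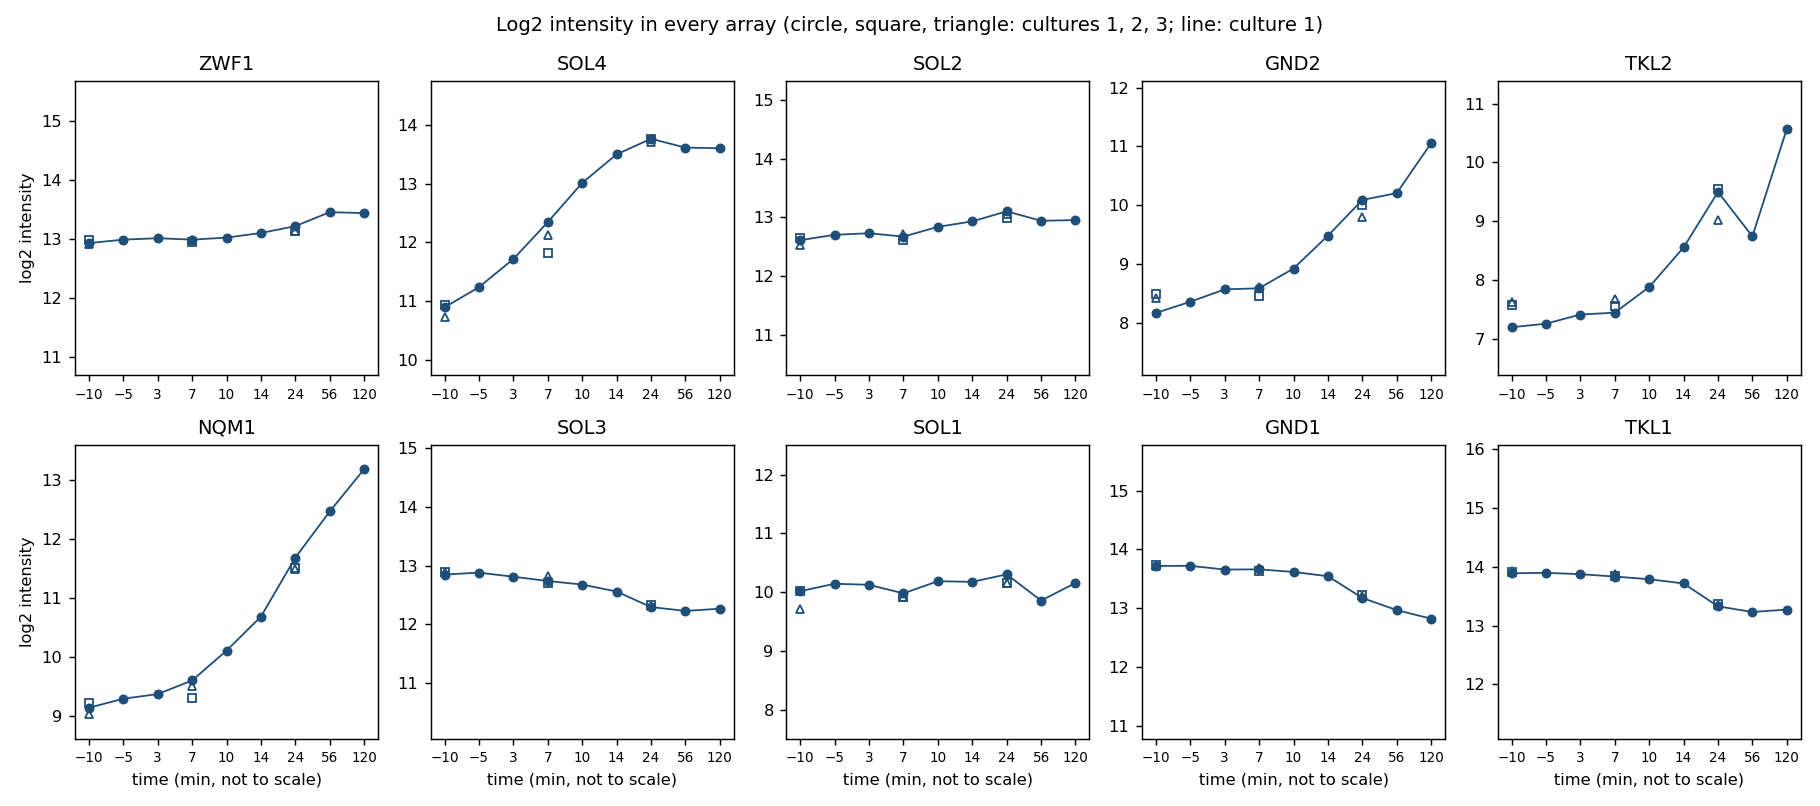
Log2 intensity of each of the 10 genes on all 15 arrays against sampling time (min, evenly spaced and not to scale), where circles, squares and triangles are cultures 1, 2 and 3 and the line joins culture 1. Every panel spans 5 log2 units but has its own range, so slopes may be compared and levels may not; SOL4, GND2, TKL2 and NQM1 climb, and SOL3, GND1 and TKL1 decline.

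ZWF1 catalyses the first and committing step of the oxidative branch. Its intensity in cultures 1, 2 and 3 was 7804, 8138 and 7729 at −10 min, 8130.3, 7912 and 8075 at 7 min, and 9533, 9028 and 9018 at 24 min. The 24 min arrays all lay above those at −10 and 7 min, and the 7 min and −10 min arrays overlapped. ZWF1 averaged 9193 ± 294 at 24 min and 7890.2 ± 218 at −10 min (SD, n = 3 each), a log2 change of 0.22 ± 0.031 (SE, adjusted p = 3.1e-05). The late arrays of culture 1 stood higher, at 11239.5 at 56 min and 11113 at 120 min, and both exceeded 24 min in limma, by 0.29 at 56 min (adjusted p = 0.000256) and 0.27 at 120 min (adjusted p = 0.000285).

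SOL4, a 6-phosphogluconolactonase, was the first of the 10 to move and rose the most by 24 min. Its intensity was 1905, 1946 and 1694 in the 3 cultures at −10 min, 5200.4, 3598 and 4455 at 7 min, and 13887, 13867 and 13305 at 24 min. The 3 times did not overlap, and culture 2 lagged at 7 min but had caught up with culture 1 by 24 min. The mean at 24 min was 7.42 times that at −10 min. On the log2 scale the change came to 2.89 ± 0.10 (SE, adjusted p = 6.36e-11). At 7 min the change was already 1.24 (adjusted p = 1.04e-05), the 8th highest of 5498 probe sets, and at 24 min it ranked 25th. The single arrays of culture 1 read 2415 at −5 min and 3366 at 3 min. They then read 8257 at 10 min and 11561 at 14 min, and finally 12517 at 56 min with 12422 at 120 min. From 14 min on these readings formed a plateau, in which neighbouring levels differed by no more than their spread, taken as the half-width of the 95% interval of their difference.

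SOL3, the other 6-phosphogluconolactonase, went the other way. It read 7376, 7562 and 7559 at −10 min, 6833, 6707 and 7244 at 7 min, and 5027, 5148 and 5076 at 24 min. The 3 times again did not overlap. SOL3 averaged 5084 ± 60.5 at 24 min and 7499 ± 106 at −10 min (SD, n = 3 each), a log2 change of −0.56 ± 0.033 (SE, adjusted p = 7.28e-09). It then read 4803 at 56 min and 4932 at 120 min, and neither differed from 24 min in limma (log2 change −0.08 and −0.04). At 56 min it passed as lower with quantile normalization or median centring (−0.14 and −0.16).

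SOL2 and SOL1 both rose by 24 min, by less than SOL4, GND2, TKL2 and NQM1. SOL2 read 6262, 6441 and 5931 at −10 min, 6529, 6249.6 and 6756 at 7 min, and 8796, 8178 and 8491 at 24 min, a log2 change of 0.45 ± 0.041 at 24 min against −10 min (SE, adjusted p = 4.8e-07). SOL1 read 1037, 1038 and 840.3 at −10 min, 1011, 973 and 967 at 7 min, and 1264, 1143 and 1145 at 24 min, a log2 change of 0.29 ± 0.080 (SE, adjusted p = 0.00513). For both genes the 24 min arrays lay above all those at −10 and 7 min, and the 7 min arrays overlapped those at −10 min. SOL1 at 56 min was 928, lower in limma than at 24 min by 0.35 on the log2 scale. At 56 and 120 min it did not differ from −10 min in limma (log2 change −0.06 and 0.24). With quantile normalization it passed as higher at 120 min (0.33).

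GND2 and GND1, which code for the minor and the major 6-phosphogluconate dehydrogenase, diverged later than the lactonases. GND2 read 288, 361 and 341 at −10 min, 385, 353 and 388 at 7 min, and 1089, 1026 and 896 at 24 min. Readings at 7 min overlapped those at −10 min, and all those at 24 min were higher. The mean at 24 min was 3.04 times that at −10 min, and the log2 change was 1.61 ± 0.097 (SE, adjusted p = 1e-08). In culture 1 it stood at 485 at 10 min and 715 at 14 min. The late arrays read 1180.5 at 56 min and 2127 at 120 min. The last step was a further rise of 1.09 against 24 min (adjusted p = 3.9e-05), whereas 56 min and 24 min were within their spread.

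GND1 read 13486, 13686 and 13494 at −10 min, 12954, 12744 and 13085 at 7 min, and 9244, 9582 and 9453 at 24 min. The 3 times did not overlap, and the steeper part of the decline came after 7 min. Its log2 change was −0.52 ± 0.024 (SE, adjusted p = 8.3e-10) at 24 min and −0.90 at 120 min (adjusted p = 3.73e-10), when it read 7239. GND1 was thus the only one of the 10 genes lower at 120 min than at 24 min in limma, by 0.38 on the log2 scale (adjusted p = 2.56e-06), though SOL2 joined it when arrays were median centred (adjusted p = 0.0215).

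TKL2 and TKL1, the minor and major transketolases, followed the same division. TKL2 read 147, 192 and 199 at −10 min, 174, 188 and 205 at 7 min, and 724, 750.5 and 519.6 at 24 min. The 24 min readings were all higher than those at −10 and 7 min, with culture 3 lowest, and these earlier times overlapped. The log2 change was 1.89 ± 0.15 (SE, adjusted p = 1.29e-07), with the widest spread of the 10 genes (residual SD 0.18 on the log2 scale, beside a median of 0.061 over all probe sets). TKL2 then read 428 at 56 min and 1522 at 120 min. The dip at 56 min against 24 min was −0.62 (adjusted p = 0.0321) and lost its call with culture as a block (adjusted p = 0.103), while the rise at 120 min against 24 min was 1.21 (adjusted p = 0.000482).

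TKL1 read 15167, 15338 and 15509 at −10 min, 14593, 14739.5 and 14959 at 7 min, and 10266, 10571 and 10454 at 24 min. No 2 of these times overlapped, and the cultures agreed closely at each. The log2 change was −0.56 ± 0.023 (SE, adjusted p = 3.28e-10) at 24 min, and −0.63 at 120 min (adjusted p = 4.49e-09).

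NQM1, a transaldolase paralog whose loss affects entry into quiescence, rose throughout. It read 561, 591 and 519.9 at −10 min, 774, 633 and 725 at 7 min, and 3294, 2928 and 2891 at 24 min. These 3 times did not overlap, and culture 2 was again lowest at 7 min. The mean at 24 min was 5.45 times that at −10 min, a log2 change of 2.45 ± 0.080 (SE, adjusted p = 3.48e-11). In culture 1 it read 1101 at 10 min and 1644 at 14 min, followed by 5678 at 56 min and 9353 at 120 min, and each step from 7 min on exceeded the spread. At 120 min it stood 4.07 log2 units over −10 min (adjusted p = 6.61e-11), the 10th highest of 5498 probe sets, against 50th at 24 min.

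TAL1 changed far less than NQM1. It read 13734, 13691 and 13786 at 24 min, and 14444, 14531 and 14274 at −10 min. The groups did not overlap, but the log2 change was only −0.07 ± 0.026 (SE, adjusted p = 0.0271), and the call was lost when arrays were quantile normalized or median centred (adjusted p = 0.0763 and 0.0789), without the trend (adjusted p = 0.069), and without culture 1 or culture 3 (adjusted p = 0.157 and 0.0794).

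Whether the members of a pair changed unequally was asked within arrays, by taking the log2 difference of the 2 genes on each array and comparing it over −10, 7 and 24 min with a two-sided exact permutation test on 9 arrays. With 1680 arrangements the smallest possible p is 0.00357, and p-values were adjusted over the 5 pairs. The 10 genes were chosen with earlier results of these data known, and the adjustment does not account for that choice. Between −10 and 24 min SOL4 gained 3.45 ± 0.13 log2 units on SOL3 (SE, 3 arrays a time, exact p = 0.00357, adjusted p = 0.00595). The SE of each gain pools the spread within the 3 times. The exact p is for the 3 times together, not for the gain alone. No other gene pairs were put through this test, so how often pairs part in general is not known. Of all probe sets 84.4% did not overlap between −10 and 24 min. GND2 gained 2.13 ± 0.11 on GND1 (exact p = 0.00357, adjusted p = 0.00595), and NQM1 gained 2.52 ± 0.085 on TAL1 (exact p = 0.00357, adjusted p = 0.00595). TKL2 gained 2.44 ± 0.18 on TKL1 (exact p = 0.0179, adjusted p = 0.0223). For these 4 pairs the gain was positive in 3 of 3 cultures, as it also was for SOL2 on SOL1. On the 120 min array of culture 1 the gains over the −10 min mean stood at 3.36 for SOL4 on SOL3, 3.60 for GND2 on GND1, 3.73 for TKL2 on TKL1 and 4.11 for NQM1 on TAL1, with no test between pairs.

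SOL2 and SOL1 were the pair without a detected difference. SOL2 gained 0.16 ± 0.069 on SOL1 (SE, exact p = 0.157, adjusted p = 0.157), with 0.20, 0.21 and 0.071 in cultures 1, 2 and 3, and the sign turned to −0.16 after quantile normalization. A comparison of 24 min with −10 min alone, 3 arrays against 3, cannot give an exact p below 0.1, which is what the 4 diverging pairs gave.

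**Figure D2:**
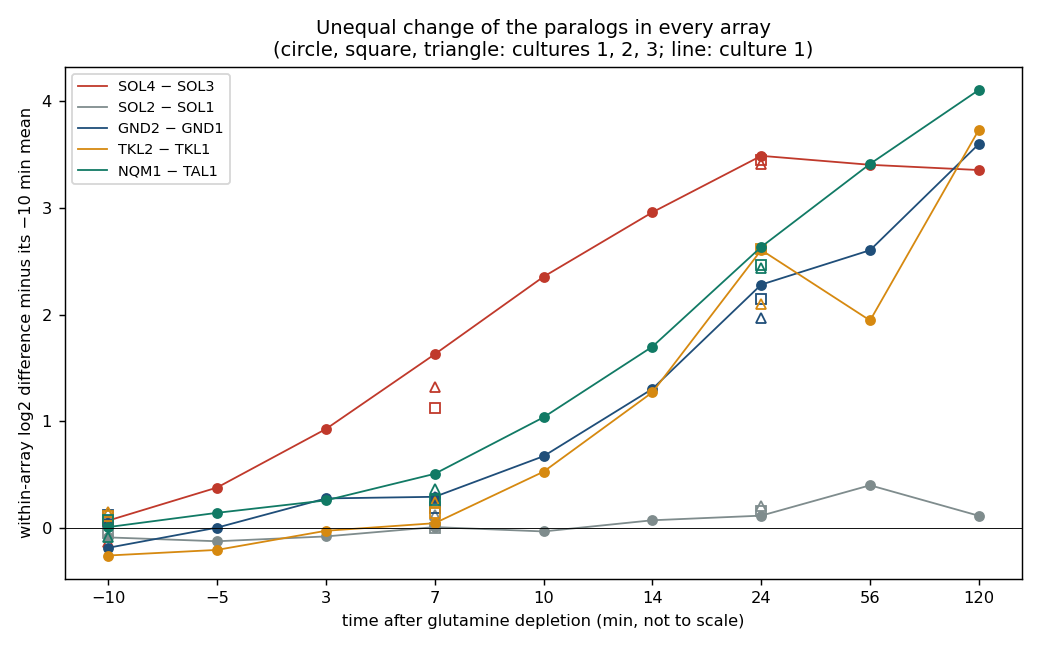
Within-array log2 difference of each pair minus its mean at −10 min, for all 15 arrays (circles, squares and triangles are cultures 1, 2 and 3, the line joins culture 1, and times are not to scale). SOL4 pulls away from SOL3 first, reaching a mean of 1.36 at 7 min, while the other 3 diverging pairs stand between 0.14 and 0.38 at that time, and SOL2 minus SOL1 lies between −0.12 and 0.40 on every array.

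The order of events was read from the comparisons with −10 min. At −5 min none of the 10 genes passed the adjusted threshold in limma and 1, SOL4, had an unadjusted p under 0.05, with 0.0182% of all probe sets passing (0.0% higher and 0.0182% lower). At 3 min SOL4 alone passed, at 0.87 (adjusted p = 0.0207), beside 3.69% of all probe sets (2.56% higher and 1.13% lower). That call was lost without the intensity trend in the variance (adjusted p = 0.0826) and with culture as a block (adjusted p = 0.135). At 7 min 4 of 10 passed, SOL4 and NQM1 higher and SOL3 and GND1 lower, where 39.4% of all probe sets did (18.5% higher and 20.9% lower). The 3 arrays at 7 min did not overlap those at −10 min for these 4 genes and TKL1, and 51.9% of all probe sets had no overlap. NQM1 had changed by 0.35 (adjusted p = 0.00475), SOL3 by −0.12 (adjusted p = 0.0151) and GND1 by −0.07 (adjusted p = 0.0421).

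The calls at 7 min other than that of SOL4 depended on the processing or on single cultures. With arrays centred on their medians SOL3 and GND1 no longer passed (adjusted p = 0.117 and 0.63), and ZWF1 and SOL2 passed as higher instead. GND1 also lost its call with culture as a block (adjusted p = 0.0655), without the trend (adjusted p = 0.0968) and without culture 1, 2 or 3 (adjusted p = 0.218, 0.0877 and 0.171). SOL3 lost its call without culture 1 or 2 (adjusted p = 0.118 and 0.0547), and NQM1 without culture 3 (adjusted p = 0.0964). The number passing was 2 without culture 1 (2 higher), 4 without culture 2 (4 higher, with SOL2 and GND2 added) and 2 without culture 3 (1 higher and 1 lower).

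At 10 min 7 genes passed, 4 higher and 3 lower, where 51.2% of all probe sets did (25.6% higher and 25.5% lower). At 14 min 9 genes passed, 6 higher and 3 lower, where 67.6% did (38.2% higher and 29.4% lower). Median centring changed the split at 10 min to 6 higher and 1 lower, and GND1 lost its call there with culture as a block (adjusted p = 0.0691). Between 7 and 24 min all 10 passed, 7 higher and 3 lower, beside 76.8% of all probe sets (46.9% higher and 29.9% lower), and none of the 10 overlapped between those times, where 80.0% of all probe sets did not. At 56 and at 120 min against −10 min 9 passed, each time 6 higher and 3 lower, and SOL1 was the exception. Of all probe sets 79.1% passed at 56 min (49.4% higher and 29.7% lower) and 77.3% at 120 min (44.4% higher and 32.9% lower). Each of these late times and the others with 1 array borrows its error from the times with 3 cultures, and all comparisons with −10 min share the same 3 baseline arrays. Calls at times with 1 array moved with the processing. With quantile normalization SOL1 gained a call at 10, 14 and 120 min (0.40, 0.41 and 0.33), and ZWF1 lost its call at 14 min (0.056 in place of 0.16). Median centring brought in SOL1 at 10 and 14 min (0.33 and 0.28) and ZWF1 at 10 min (0.14).

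After 24 min the rising genes separated. Against 24 min, 4 genes were higher at 120 min, ZWF1, GND2, TKL2 and NQM1 (the last by 1.63, adjusted p = 2.85e-07), and GND1 was lower, where 51.2% of all probe sets passed (30.2% higher and 21.0% lower). SOL4 changed by −0.14 over the same interval (adjusted p = 0.449). At 56 min against 24 min ZWF1 and NQM1 were higher and SOL1, GND1, TKL1 and TKL2 lower, where 44.8% passed (32.6% higher and 12.2% lower). With culture as a block TKL1 lost this call, as TKL2 did. Median centring brought in SOL2 and SOL3 as lower at 56 min against 24 min (−0.19 and −0.16), and quantile normalization brought in SOL3 (−0.14).

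Expressed as a share of each gene's largest log2 change in culture 1, SOL4 had completed 50.6% at 7 min and 73.8% at 10 min. At 10 min GND2, NQM1 and TKL2 stood at 26.2%, 23.9% and 20.3%. SOL4 therefore crossed the midpoint between 3 and 7 min, SOL1 between 7 and 10 min and SOL2 between 10 and 14 min. The midpoints of GND2, TKL2, NQM1, SOL3, GND1, TKL1 and ZWF1 fell between 14 and 24 min. These windows depend on the endpoint, which was 24 min for SOL4, SOL1 and SOL2 and later for the other genes. Counted only to 24 min, GND2, TKL2, NQM1, SOL3 and ZWF1 passed their midpoints between 10 and 14 min, in the window of SOL2. GND1 and TKL1 still did so between 14 and 24 min, and SOL4 stayed first. SOL1 changed by little and unevenly, with 37.8% at 3 min and −12.8% at 7 min. These shares come from 1 array per time and carry no test.

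**Figure D3:**
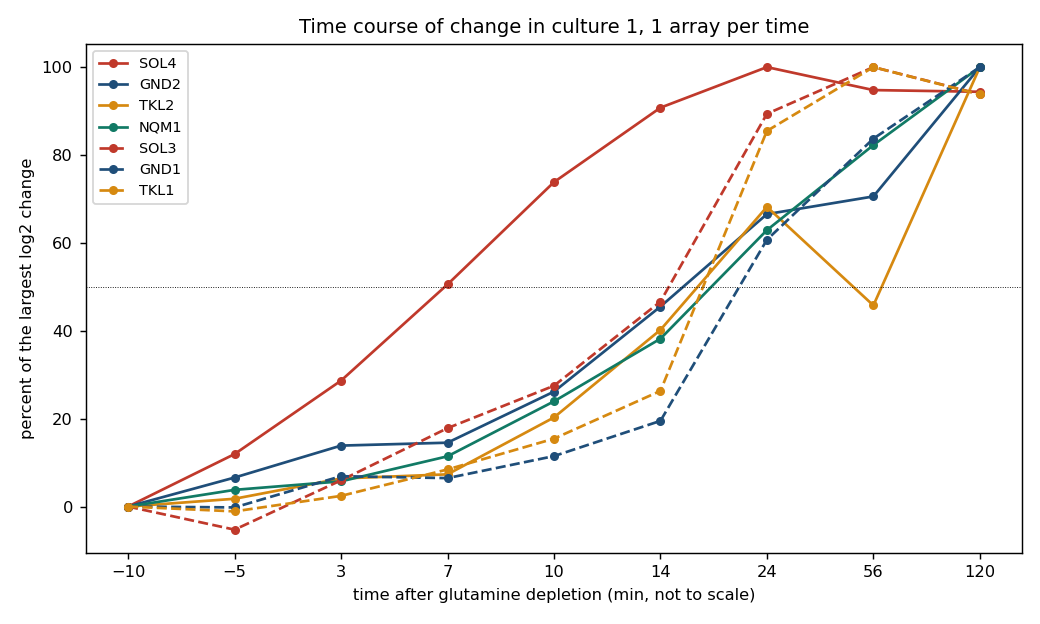
Percent of the largest log2 change from −10 min reached at each time in culture 1 (1 array per time, times not to scale, dotted line at 50 percent), for 4 rising genes (solid) and 3 falling genes (dashed). SOL4 leads, at 73.8% by 10 min, and TKL2 dips to 45.8% at 56 min before its highest reading at 120 min.

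The genes around the pathway did not move as a block. All 4 other enzymes of the non-oxidative branch and its shunt, RKI1, RPE1, SHB17 and TAL1, were lower at 24 min than at −10 min, where 35.2% of all probe sets were, TAL1 with the limits given above. RKI1, the ribose 5-phosphate isomerase, fell furthest and has no paralog. It read 302, 335 and 300.4 at 24 min, and 5553, 5702 and 5673 at −10 min, a log2 change of −4.18 (adjusted p = 4.04e-13). RPE1, the epimerase, and SHB17, the sedoheptulose bisphosphatase, fell by 0.35 and 0.51 on the log2 scale (adjusted p = 1e-07 and 6.73e-09). In culture 1 RKI1 read 4277 at 3 min and 2048 at 10 min, with 1081 left at 14 min, so most of its decline on the log2 scale came after 10 min.

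Of 7 genes that feed or draw on glucose 6-phosphate, 4 rose, 2 fell and PGI1, phosphoglucose isomerase, did not pass (0.03, adjusted p = 0.132). PGM2, the major phosphoglucomutase, rose by 2.19 (adjusted p = 4.5e-11) and PGM1 fell by 0.36 (adjusted p = 2.12e-06). HXK1 rose by 1.69 (adjusted p = 3.27e-10) and HXK2, the hexokinase of growth on glucose, fell by 0.22 (adjusted p = 3.86e-06). The paralogs GLK1, glucokinase, and EMI2 rose by 1.24 and 1.32. Over all probe sets 46.9% were higher and 35.2% lower, and no difference within these pairs was tested.

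Of 7 genes of ribose phosphate and phosphoribosyl pyrophosphate (PRPP) metabolism, 4 fell, 2 rose and PRS2 did not pass (0.07, adjusted p = 0.107). The shares over all probe sets were 35.2% lower and 46.9% higher. The 4 that fell all code for subunits of PRPP synthetase, which consumes ribose 5-phosphate: PRS4 (−2.45), PRS3 (−1.97), PRS1 (−1.66) and PRS5 (−0.65). PRS2 codes for a subunit too. Ribokinase RBK1 rose by 0.46, and PRM15, a phosphoribomutase, by 1.04.

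Among 8 other genes of NADPH and NADP supply, 5 rose, 2 fell and IDP1 did not pass (−0.01, adjusted p = 0.779), beside 46.9% higher and 35.2% lower over all probe sets. MAE1, the mitochondrial malic enzyme, fell by 4.14 (adjusted p = 8.83e-14), to 482 ± 8.77 at 24 min, against 8481 ± 285 at −10 min (SD, n = 3 each). POS5 was lower too, with a log2 change of −0.18 (adjusted p = 0.00357). The NADH and NAD kinase YEF1 rose by 1.66, the peroxisomal and cytosolic isocitrate dehydrogenases IDP3 and IDP2 by 0.64 and 0.41, and ALD6, the cytosolic aldehyde dehydrogenase that makes NADPH, by 0.24. The NAD kinase UTR1 rose by 0.13 (adjusted p = 0.013) and lost its call without culture 1 or 3 (adjusted p = 0.113 and 0.0817).

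**Figure D4:**
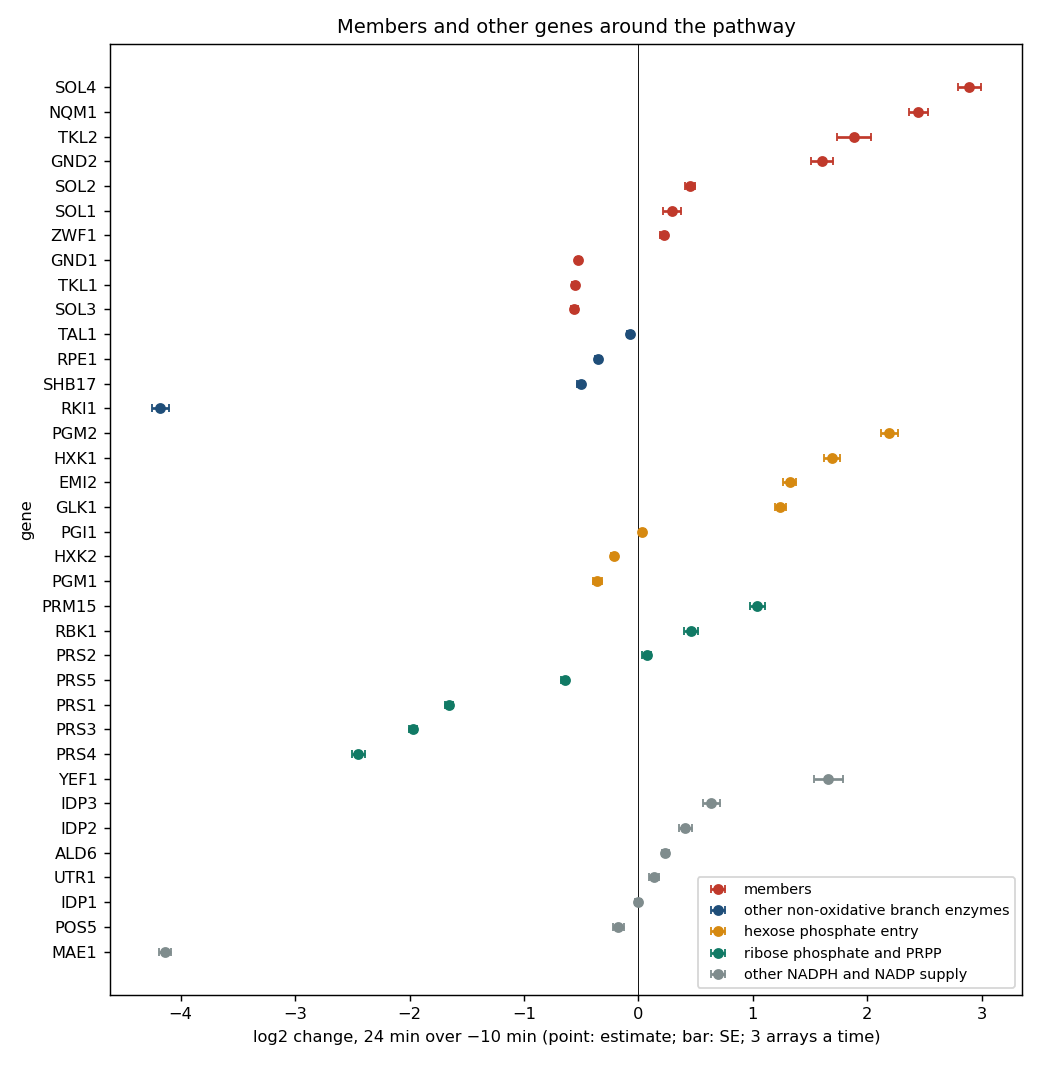
Log2 change at 24 min over −10 min for the 10 genes (labelled members) and for 4 lists of genes around the pathway, as estimates with SE bars (3 arrays a time, 1 row per gene). The 10 genes run between 2.89 (SOL4) and −0.56 (SOL3), and RKI1 and MAE1 lie near −4 among the others.

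STB5, an activator of pentose phosphate genes under oxidative stress, rose by 0.35 at 24 min (adjusted p = 0.000323), and YAP1, the regulator of the oxidative stress response, by 0.28 (adjusted p = 1e-05). The general stress regulators MSN4 and MSN2 rose by 1.83 and 0.27, and GIS1, a regulator of stationary phase genes, by 1.23, so all 5 regulators examined were higher, where 46.9% of all probe sets were. All 6 genes taken as known targets of Msn2 and Msn4 were higher as well, from the heat shock gene HSP12 (0.68) to the catalase gene CTT1 (3.01) and the glycogen phosphorylase gene GPH1 (3.05). TPS2, TSL1 and DDR2 rose by 1.40, 1.45 and 1.51. The median of the 6 was 1.48, beside 0.087 over all probe sets. Both lists were chosen with earlier results of these data known, so the counts and the median are descriptions only.

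Genes were also ranked by how closely their log2 intensity tracked each of the 10 over the 15 arrays, by Pearson's r. The arrays are points of 1 time course and share cultures, so r is a description only. The nearest to SOL4 were LEE1, GLK1 and TPS1 (r = 0.999, 0.998 and 0.998). NQM1 was the third nearest to GND2 (r = 0.990), and GND2 the third nearest to TKL2 (r = 0.972). The nearest gene was TSA2 for NQM1 (0.998), ARO2 for TKL1 (0.998), FUR1 for SOL3 (0.996), DYS1 for GND1 (0.995), RNR3 for ZWF1 (0.994) and HEM15 for SOL2 (0.989). SOL1 had no close match, with CDC19 nearest at 0.816.

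SOL4 and GND2, the rising lactonase and dehydrogenase, lie on chromosome VII with 7 genes between them, and SOL3 and GND1, their falling paralogs, lie on chromosome VIII with 20 genes between them. The 6 measured genes between SOL4 and GND2 changed by −1.84 to 1.40 on the log2 scale at 24 min, with a median of 0.28. The 16 measured genes between SOL3 and GND1 changed by −3.98 to 1.78, with a median of 0.11. The genes in between thus moved in both directions.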

How the data were processed

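Total RNA was labelled with biotin and hybridised to Affymetrix Yeast Genome 2.0 arrays. The deposited values are linear intensities, 1 per probe set and array, which the authors made from the scans by correcting the background as RMA does, leaving out mismatch probes, normalizing with QSPLINE and summarizing by the Li-Wong model. The submitters' notes name R 2.10.0, affy and RMA. These steps force the arrays to like distributions, so a shift shared by most transcripts would be removed. The study's other experiments, the upshift to glutamine and the rapamycin treatment, were not analysed here.

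Intensities were turned into log2 values with no pseudocount. Of 10928 probe sets, the 5498 with 1 yeast gene symbol in the platform annotation (5449 genes) were tested. limma 3.58.1 in R 4.3.3 fitted 1 mean per time over the 15 arrays with eBayes and an intensity trend (6 residual df), and Benjamini-Hochberg adjustment ran over all 5498 within a comparison, with a threshold of 0.05. Times with 1 array borrow their spread from −10, 7 and 24 min. Background was the 95th percentile of the mean log2 values of 1746 probe sets for another organism. Both scripts were tested on simulated data.

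Paralogs were compared by the exact permutation test described beside the results. Cultures 1, 2 and 3 were separate bioreactors, each sampled at the 3 times, so the study's design pairs the arrays by culture. Deviations from the time means of arrays from the same culture correlated with r between −0.27 and 0.19. The named genes were the 10 and TAL1, every gene of 6 other lists by its count, and the 3 genes of closest pattern. The members and lists were chosen with earlier results of these data known. Alternatives were quantile normalization, median centring, 50 units added before log2, dim probe sets left out, no trend, culture as a fixed or random block, each culture left out, and the 9 replicated arrays alone. Times with 1 array were also set against the −10 min array of culture 1, without a test. Sequences were not used here.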

Additional observations from a re-analysis of the deposited data

Results flagged for a closer look

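Each of the 10 genes differed between its change by 24 min and its change by 7 min, both counted from −10 min, when the difference itself was tested in limma (3 arrays a time). The further change between 7 and 24 min was 0.19 for ZWF1, 0.27 for SOL1, 0.38 for SOL2, 1.65 for SOL4, 1.42 for GND2, 1.80 for TKL2 and 2.099 for NQM1 on the log2 scale. It was −0.45 for SOL3, −0.46 for GND1 and −0.50 for TKL1. Since 76.8% of all probe sets passed the same test, passing it does not set these genes apart. SOL1 no longer passed without culture 1 (adjusted p = 0.0512).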

How the results depend on the processing

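At 24 min against −10 min all 10 genes kept direction and call under all 11 alternatives. Of 890 gene, comparison and setting combinations that carry a test, 849 kept direction and call, 20 lost the call, 14 gained it and 7 reversed, none of the reversed past the threshold in the original fit. The reversals were SOL1 at 56 min with quantile normalization (0.017), GND1, GND2 and TKL1 at −5 min with the replicate block (0.0052, 0.0093 and 0.0096), TKL1 at −5 min with quantile normalization (0.015), TKL2 at 3 min with the block (0.024), and SOL1 at 7 min without replicate 3 (culture 3), which ran between −0.065 and 0.083 with 1 culture left out. Outside the 10 genes, IDP1 at 24 min reversed with median centring (0.006) and ran between −0.025 and 0.013 with 1 culture left out. SOL2 minus SOL1 reversed with quantile normalization (−0.16). The count passing at 7 min ran between 2 and 4 with 1 culture left out, and at 3 min it was 0 without the trend and 0 with the block. Leaving out 1 culture moved the change of SOL4 minus SOL3 between 3.40 and 3.48, GND2 minus GND1 between 1.96 and 2.24, TKL2 minus TKL1 between 2.23 and 2.68 and NQM1 minus TAL1 between 2.46 and 2.58. With 2 cultures the exact test cannot go below 0.0667, so no pair can pass. Permuting within cultures gave those 4 pairs an adjusted p of 0.0347 each and SOL2 minus SOL1 one of 0.0556. The block changed no call of the 10 genes at 24 min against −10 min. It ended those of SOL4 at 3 min, GND1 at 7 and 10 min, and TKL1 and TKL2 at 56 min against 24 min. Set against the −10 min array of culture 1 alone, SOL1, GND2 and TKL2 moved by more than their residual SD at every time with 1 array. At 10 min SOL1 changed by 0.17 in place of 0.27, GND2 by 0.76 in place of 0.56 and TKL2 by 0.68 in place of 0.41. The sign turned for TKL2 at −5 and 3 min and for GND2, GND1 and TKL1 at −5 min. The genes other than SOL1, GND2 and TKL2 moved by less than their residual SD, and no test goes with these values. The number of arrays limits the precision, most of all at the 6 times with 1 array.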
